A study of Mus musculus with 63 samples.

Results

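The miR-143 and miR-145 cluster is a pair of microRNA (miRNA) hairpins that lie next to each other on mouse chromosome 18. The 4 mature miRNAs cut from them, mmu-miR-143-3p, mmu-miR-143-5p, mmu-miR-145a-5p and mmu-miR-145a-3p (written below without the species prefix), were taken by name from a table of 2110 mature miRNA loci, and each of the 4 had 1 locus. They were followed in 63 small RNA libraries from 4 cell populations that had been sorted by FACS from the kidneys of 16 mice: CD31+ endothelial cells (ECs), F4/80+ macrophages (Macs), LTL+ proximal tubular (PT) cells and PDGFR-β+ stromal cells. All mice were C57BL/6 males aged 8 to 12 weeks. They were sham operated, or had unilateral ureteric obstruction (UUO) for 2 days (UUO-2) or 7 days (UUO-7), or had 7 days of obstruction followed by reversal for 14 days (R-UUO). Each cell population had 4 libraries per condition, 1 from each mouse, except that PDGFR-β+ cells at UUO-7 had 3, because the authors removed 1 library as an outlier. The question was where the cluster was expressed, how it changed with injury and reversal, and whether its level in the other cell types went with that in the PDGFR-β+ library of the same mouse.

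The cluster is known as the characteristic miRNA pair of smooth muscle and other mural cells, the contractile and supporting cells that wrap blood vessels. Its transcription is driven by serum response factor and its coactivators, and its targets include regulators of the actin cytoskeleton and of the switch between the contractile and the synthetic state of smooth muscle. Each hairpin gives a 5p and a 3p arm, of which usually 1 is loaded into the silencing complex and the other is mostly degraded. PDGFR-β marks pericytes, fibroblasts, mesangial cells and vascular smooth muscle alike, so the PDGFR-β+ gate holds mural cells together with fibroblasts, and the level in mural cells alone was not measured.

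On GRCm38, miR-145a-3p was counted at chr18:61647827-61647848 and miR-145a-5p at chr18:61647866-61647888, inside the hairpin gene Mir145a at chr18:61647825-61647894. The loci of miR-143-3p, chr18:61649199-61649219, and miR-143-5p, chr18:61649233-61649253, lie in Mir143 at chr18:61649196-61649258. The hairpins are 1301 bases apart on the minus strand. Both lie within the span of the long noncoding RNA gene Carmn, also named Mir143hg, which RefSeq places at chr18:61645878-61665538 of GRCm38.p6, and GENCODE lists only the 2 hairpin genes at these loci. The similarly named miR-145b, at chr18:69022237-69022257, had 6 counts in all 63 libraries together and at most 2 in any of them, so it held next to none of the counts under this name.

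The libraries had 616565 to 10819385 counts, lowest in PT cells (616565 to 5093294) and highest in ECs (2792366 to 10819385), with 1905053 to 8769219 in PDGFR-β+ cells and 1106651 to 6912556 in Macs. The sorted populations carried their own marker miRNAs. For example, miR-126a-3p of endothelium had a median of 23953 CPM (counts scaled to library size) in ECs and at most 910 in any other library. Of the leukocyte miRNAs, miR-142a-3p had a median of 705 CPM in Macs and at most 44.8 in a library of another type. miR-142a-5p and miR-223-3p were also highest in Macs. The remaining one, miR-150-5p, went the other way, with medians of 2836 CPM in ECs and 304 in Macs. The PT library of R-UUO mouse 1 stood apart: its scaling factor within PT cells was 0.427, against 0.996 to 1.13 in the other 3 libraries of its group, and the summed level of 6 tubule markers was 23171 CPM, against 41323 to 72742. The EC library of R-UUO mouse 4 stood apart as well, with a scaling factor within ECs of 0.674 against 0.891 to 1.02 in the rest of its group, 3934970 counts, and an endothelial marker sum of 93098 CPM against 133334 to 168234. Tests at R-UUO that use either library are also given without it. The libraries are bulk samples of sorted cells, so fewer cells that express a miRNA and less of it per cell cannot be told apart.

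The 4 arms differed widely in abundance. Over the 63 libraries mmu-miR-143-3p had 14161510 counts, mmu-miR-145a-5p 78117, mmu-miR-145a-3p 75774 and mmu-miR-143-5p 5191. The arm of miR-143 that accumulates was thus the 3p arm, which took a median of 14.4% of all counts in a PDGFR-β+ library (range 6.48% to 29.2%). It ranked between 1 and 3 among all loci in every PDGFR-β+ library. In ECs it took a median of 1.01% (0.337% to 2.77%), in Macs 0.768% (0.301% to 1.27%) and in PT cells 0.738% (0.205% to 1.57%), and its median rank was 17 in ECs, 26 in Macs and 22 in PT cells. The 2 arms of miR-145a had nearly equal counts in PDGFR-β+ cells, where both were near 0.08% of a library (medians 0.0807% for the 5p and 0.0752% for the 3p arm). Small RNA libraries favour some ends over others in ligation, so a difference between arms in a library is also a difference between 2 sequences.

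Every arm was highest in PDGFR-β+ cells. On 1 scale for all 63 libraries (TMM), the 15 PDGFR-β+ libraries held 73239 to 392850 CPM of miR-143-3p with a median of 197468. The EC libraries held 7157 to 45310 CPM (median 16026), the PT libraries 1503 to 24913 (median 6627) and the Mac libraries 1894 to 8366 (median 4349). The lowest PDGFR-β+ library was thus above the highest library of any other type, and the ranges of ECs, PT cells and Macs overlapped. The same order of medians held for miR-143-5p, with 96.2 CPM in PDGFR-β+ cells, 6.43 in ECs, 4.2 in PT cells and 2.82 in Macs. For miR-145a-5p the medians were 912, 107, 64.9 and 29.4 CPM, and for miR-145a-3p 1209, 69.6, 26.1 and 23.9 CPM, in the same order of cell types. Only for miR-145a-5p did a library of another type reach the PDGFR-β+ range within a condition: the PT library of R-UUO mouse 1 had 759 CPM, above the lowest PDGFR-β+ library of R-UUO at 407 CPM.

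**Figure D1:**
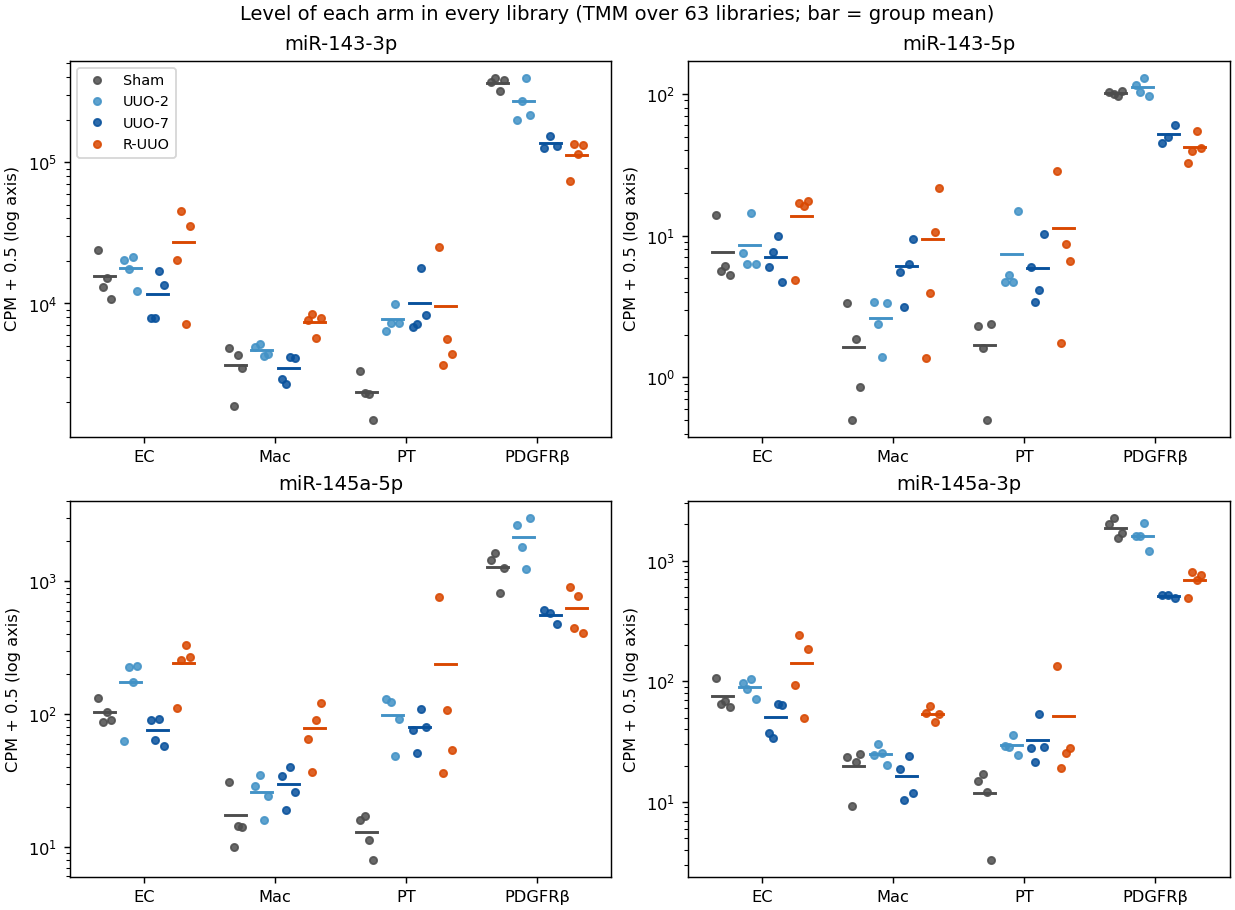
CPM + 0.5 on a log axis (TMM over 63 libraries) for the 4 arms, by sorted cell type and condition, where each point is 1 library and each bar a group mean. For miR-143-3p the PDGFR-β+ libraries lie between 73239 and 392850 CPM, above all others, and those of UUO-7 and R-UUO are the lower ones; points at 0.5 are libraries with 0 counts.

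Averaged over conditions, PDGFR-β+ cells exceeded ECs by 3.52 ± 0.217 on the log2 scale (SE) for miR-143-3p, 3.04 ± 0.289 for miR-143-5p, 2.89 ± 0.262 for miR-145a-5p and 3.61 ± 0.208 for miR-145a-3p. All 4 passed edgeR's quasi-likelihood test with an FDR of 0.05, as did 24.7% of the 671 loci tested in this direction. Over Macs the excess was 4.38 to 5.43 and over PT cells 3.85 to 5.21, and all 4 passed in each, against 38.7% and 35.9% of the loci. Without the PT library of R-UUO mouse 1 the excess over PT cells was 4.23 to 5.49, and without the EC library of R-UUO mouse 4 that over ECs was 2.88 to 3.46. With all libraries the adjusted p-values in these 3 comparisons were at most 1.07e-13.

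The excess of miR-143-3p was largest in sham kidneys and, against ECs and Macs, smallest after reversal. For this arm the difference between PDGFR-β+ cells and ECs was 4.54 ± 0.452 in Sham and 3.92 ± 0.439 at UUO-2, then 3.55 ± 0.444 at UUO-7 and 2.07 ± 0.406 at R-UUO. Against Macs it went from 6.65 ± 0.499 in Sham to 3.94 ± 0.439 at R-UUO. Against PT cells it was 7.27 ± 0.513 in Sham, 3.76 ± 0.448 at UUO-7 and 3.55 ± 0.431 at R-UUO. There it was smallest at R-UUO only with the PT library of R-UUO mouse 1. Without the PT library of R-UUO mouse 1 the R-UUO differences from PT cells were 4.70 ± 0.445 for miR-143-3p, 3.22 ± 0.679 for miR-143-5p, 3.40 ± 0.467 for miR-145a-5p and 4.93 ± 0.456 for miR-145a-3p, where they were 3.55, 1.89, 1.40 and 3.71 with it. Without the EC library of R-UUO mouse 4 those from ECs were 1.54 to 1.92, and all 4 still passed. For miR-145a-5p the excess at UUO-2 was level with or above that in Sham against ECs (3.65 in both) and Macs (6.43 and 6.23). All 4 arms remained above each other type at R-UUO in the test (smallest difference 1.39 ± 0.492 for miR-145a-5p against ECs, edgeR adjusted p = 0.0235), where 20.7%, 31.4% and 27.9% of all loci were higher in PDGFR-β+ cells than in ECs, Macs and PT cells. Without the EC library of R-UUO mouse 1, 2 of the 4 arms passed against ECs at R-UUO. As z scores of log2 CPM within a condition, which set a cell type against the other 3, PDGFR-β+ cells averaged 1.48 to 1.79 for the 4 arms in Sham, UUO-2 and UUO-7. At R-UUO they averaged 1.38 for miR-143-3p and 1.42 for miR-145a-3p but 1.1 for each of miR-143-5p and miR-145a-5p.

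Within PDGFR-β+ cells the cluster was lower at UUO-7 and R-UUO than in sham kidneys. On the scale of the 15 PDGFR-β+ libraries, miR-143-3p had 269442, 342175, 242431 and 304316 CPM in Sham, and 170791, 216978, 321194 and 168690 CPM at UUO-2. At UUO-7 it had 90584, 116565 and 104451 CPM, and at R-UUO 59463, 97031, 79106 and 107289 CPM. Of the UUO-2 libraries 3 were below every sham library and 1 was within the sham range, while all 7 libraries of UUO-7 and R-UUO were below every library of Sham and UUO-2. The change from Sham to UUO-7 was -1.48 ± 0.235 log2 (edgeR adjusted p = 9.32e-05), and that from UUO-2 to UUO-7 was -1.08 ± 0.232 (adjusted p = 0.00206).

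miR-143-5p, the scarce arm of the same hairpin, had 74.8, 87.0, 72.7 and 84.0 CPM in Sham and 99.8, 81.5, 105 and 75.3 at UUO-2, then 32.3, 37.9 and 48.3 at UUO-7 and 25.9, 28.1, 37.9 and 33.4 at R-UUO. Again the 7 later libraries lay below the 8 earlier ones, with a change of -1.02 ± 0.210 from Sham to UUO-7 (edgeR adjusted p = 0.00104).

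miR-145a-3p had 1471, 1960.0, 1163 and 1350 CPM in Sham and 1379, 1278, 1674 and 939 at UUO-2, then 379, 397 and 390 at UUO-7 and 395, 580, 479 and 622 at R-UUO. It had the largest fall of the 4 arms at UUO-7, -1.94 ± 0.222 against Sham (edgeR adjusted p = 4.57e-06), and the 3 libraries of UUO-7 were nearly level.

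miR-145a-5p, the arm usually given as the active one of its hairpin, had 1057, 1433, 614 and 1007 CPM in Sham and 2309, 1446, 1020 and 2323 at UUO-2, then 444, 447 and 381 at UUO-7 and 740, 323, 539 and 331 at R-UUO. Its group means thus ran from Sham up to UUO-2 and then down, although the rise to UUO-2 was not past the threshold (0.79 ± 0.313, adjusted p = 0.15). From UUO-2 to UUO-7 it fell by 2.07 on the log2 scale (SE 0.360, edgeR adjusted p = 0.000466), and from Sham by 1.28 (SE 0.348, adjusted p = 0.00624). At R-UUO the library of mouse 1, with 740 CPM, was above the lowest sham library, and the groups overlapped.

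At UUO-7 all 4 arms had groups that did not overlap with Sham or with UUO-2, as had 18.9% and 17.2% of loci in this direction, and at R-UUO 3 arms did not overlap with Sham, as did 14.9% of loci.

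By the test, all 4 arms fell from Sham to UUO-7 at an FDR of 0.05 and a fold change above 1.5, where 14.3% of the 477 loci tested fell, and none was called from Sham to UUO-2, where 0.629% fell and 5.66% rose (edgeR). At an unadjusted p under 0.05, 1 arm differed between Sham and UUO-2 with edgeR and 2 with DESeq2. All 4 fell from UUO-2 to UUO-7, with 10.3% of loci falling. Between UUO-7 and R-UUO no arm was called by edgeR or by DESeq2, with differences of -0.33 to 0.42 and with 3.98% of loci called in either direction. No arm had an unadjusted p under 0.05 there with edgeR, and 1 had with DESeq2. All 4 were lower at R-UUO than in Sham, as were 13.8% of loci, with changes of -1.76 ± 0.215 for miR-143-3p, -1.34 ± 0.192 for miR-143-5p, -1.52 ± 0.198 for miR-145a-3p and -1.09 ± 0.315 for miR-145a-5p. These contrasts share the sham or the UUO-7 libraries and are not independent of each other.

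The size of the fall depended on the scaling, not its direction. With TMM the median log2 change of all loci from Sham to UUO-7 was 0.50, and with library size alone it was 1.02. On library size alone the 4 arms changed by -0.95 (miR-143-3p), -0.48 (miR-143-5p), -0.73 (miR-145a-5p) and -1.40 (miR-145a-3p), and 2 of them, miR-143-3p and miR-145a-3p, were called. miR-143-3p went from 24.2% to 27.1% of a sham library to 11.1% to 14.4% at UUO-7 and 6.48% to 11.7% at R-UUO.

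**Figure D2:**
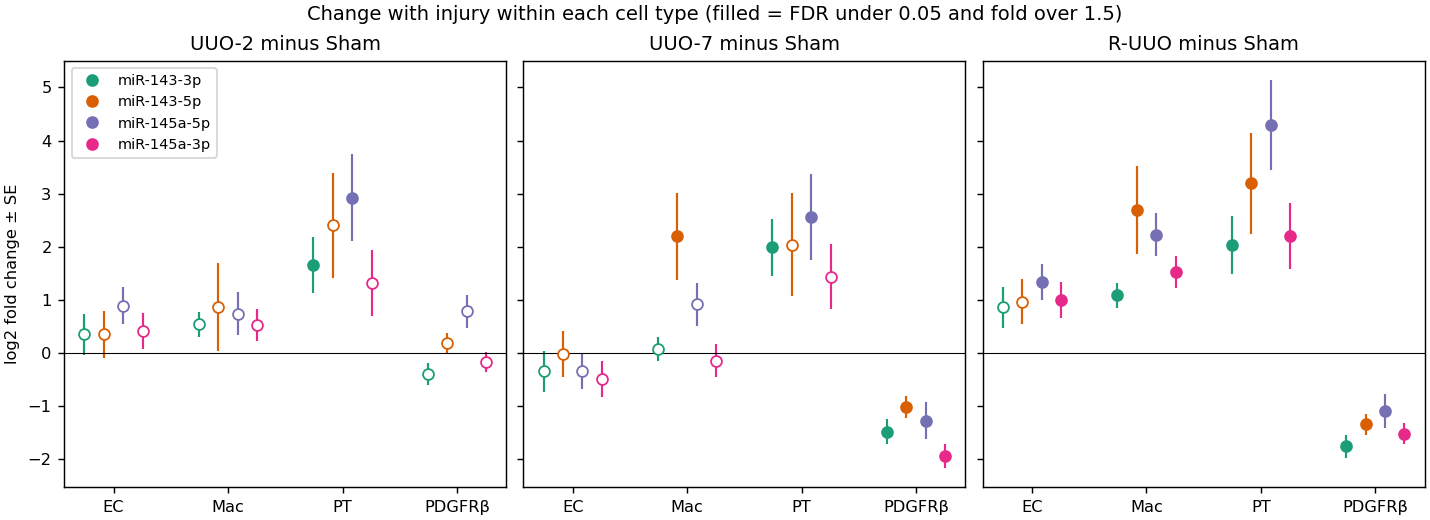
log2 fold change against Sham ± SE for the 4 arms in each cell type at UUO-2, UUO-7 and R-UUO, from edgeR within the cell type. All 4 arms lie below 0 in PDGFR-β+ cells at UUO-7 (-1.02 to -1.94) and R-UUO, while at R-UUO all lie above 0 in ECs, Macs and PT cells.

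In the other cell types the arms that were called were higher than in Sham, not lower. In Macs the 4 arms were all higher at R-UUO than in Sham, where 21.4% of 457 loci rose. miR-143-3p had 7535, 2966, 7062 and 5141 CPM in sham Macs and 12719, 13344, 8730 and 13336 at R-UUO, with no overlap, as in 18.8% of loci (1.08 ± 0.233 log2, edgeR adjusted p = 0.00126). miR-145a-5p went from 47.7, 15.0, 22.7 and 20.0 CPM to 107, 58.2, 138 and 207, again without overlap (2.23 ± 0.411, adjusted p = 0.000358), and miR-145a-3p from 13.6 to 36.3 CPM to 70.1 to 97.9 (1.52 ± 0.308, adjusted p = 0.000787). miR-143-5p rose by 2.69 log2 (edgeR adjusted p = 0.015) on 0 to 26 counts in sham and 4 to 38 counts in R-UUO libraries, with overlapping groups.

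For the 3 more abundant arms the rise in Macs was called between UUO-7 and R-UUO. miR-143-3p rose by 1.01 ± 0.232, miR-145a-5p by 1.31 ± 0.401 and miR-145a-3p by 1.67 ± 0.314 (edgeR adjusted p at most 0.0229), where 12.7% of loci rose, while miR-143-5p differed by 0.50 ± 0.753 (adjusted p = 0.641). At UUO-2 no arm was called against Sham by edgeR or DESeq2, and 1 had an unadjusted p under 0.05 with either tool (27.6% of loci were called in either direction). Between UUO-2 and UUO-7 none was called by either tool, with 1 and 2 at an unadjusted p under 0.05, where 30.6% of loci were called. At UUO-7 only miR-143-5p was called against Sham (2.19 ± 0.822, adjusted p = 0.0351), where 26.3% of loci rose. That call was lost without any of 6 of the 8 libraries compared (all 3 sham libraries other than that of mouse 1, and those of UUO-7 mice 2, 4 and 5) and with a term for the replicate number. The summed level of 7 stromal markers (miR-199, miR-214 and miR-34 arms) in Macs rose as well, and earlier: it was 92.1 to 149 CPM in Sham and 140 to 170 at UUO-2, then 360 to 456 at UUO-7 and 630 to 1394 at R-UUO. At UUO-7, where this sum was above every sham library, miR-143-3p differed from Sham by 0.07 and miR-145a-3p by -0.14. There miR-145a-5p differed by 0.92 ± 0.404 (edgeR adjusted p = 0.0669) and miR-143-5p by 2.19. In PDGFR-β+ cells, where the cluster fell, that sum rose too. It was 4716 to 5432 CPM in Sham and 5373 to 7644 at UUO-2, then 18423 to 22694 at UUO-7 and 19430 to 25495 at R-UUO. Its part in the rise of the cluster in Macs was not tested.

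In PT cells the rise was already present at UUO-2. miR-143-3p had 4010, 2683, 2697 and 1795 CPM in Sham and 7479, 8312, 11398 and 8091 at UUO-2, with no overlap (1.66 ± 0.532 log2, edgeR adjusted p = 0.0346). miR-145a-5p went from 18.3, 19.2, 12.6 and 9.0 CPM to 152, 140, 55.1 and 102 (2.92 ± 0.821, adjusted p = 0.0207). These 2 arms were also called at UUO-7, with 1.99 ± 0.538 and 2.56 ± 0.811 (adjusted p = 0.00725 and 0.017). All 4 arms had groups without overlap in both comparisons, as had 22.4% of the 330 loci at UUO-2 and 28.5% at UUO-7 in this direction. By the test, 14.8% and 25.5% of loci rose. The UUO-2 calls were carried by few libraries: leaving out any of 7 of the 8 libraries left 0 or 1 call, 0 without the UUO-2 library of mouse 1 or the sham library of mouse 3 or 4, and at UUO-7 1 call was left without the sham library of mouse 4. Between UUO-2 and UUO-7 no arm was called by edgeR or DESeq2 and none had an unadjusted p under 0.05 (4.24% of loci were called).

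At R-UUO the PT library of mouse 1 had 30211 CPM of miR-143-3p, while the other 3 had 4069, 6625 and 4903. For miR-145a-5p it had 920 CPM against 39.2, 127 and 59.9. With it, all 4 arms were higher than in Sham (2.03, 3.19, 4.29 and 2.20 log2 for miR-143-3p, miR-143-5p, miR-145a-5p and miR-145a-3p), where 25.8% of loci rose. Without it, 2 arms were called: miR-145a-5p at 2.33 ± 0.454 (edgeR adjusted p = 0.00079) and miR-143-3p at 0.91 ± 0.328 (adjusted p = 0.0444), while miR-145a-3p had 1.03 ± 0.456 (adjusted p = 0.0965) and miR-143-5p did not pass the filter on low counts. Between UUO-7 and R-UUO no arm was called by edgeR or DESeq2, with 1 at an unadjusted p under 0.05 in each, where 1.52% of loci were called. The differences between R-UUO and UUO-7 were 1.72 for miR-145a-5p, 0.77 for miR-145a-3p and 0.044 for miR-143-3p with the library of mouse 1. Without it they turned to -0.25, -0.42 and -1.09 (adjusted p = 0.747, 0.576 and 0.0613). The stromal marker sum was 229 CPM in that library and 121 to 179 in the other 3, and 113 to 136 in sham PT cells. It was 94.6 to 148 at UUO-2 and 157 to 260 at UUO-7, where all 4 libraries were above every sham library. The tubule marker sum was lower in PT cells at UUO-7 (41662 to 61641 CPM) than in Sham (106005 to 136262). The part of these shifts in the PT values was not tested.

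In ECs the 4 arms changed against Sham by 0.35 to 0.89 at UUO-2 and by -0.49 to -0.02 at UUO-7. None of these changes was called by edgeR or DESeq2 (1.71% and 11.5% of 469 loci were called in either direction). At an unadjusted p under 0.05 there was 1 arm at UUO-2 and 0 at UUO-7 with either tool. Between UUO-2 and UUO-7, where 1.92% of loci were called, edgeR called no arm and DESeq2 1, with 2 at an unadjusted p under 0.05 in each. In edgeR these were miR-145a-5p at -1.23 ± 0.346 (adjusted p = 0.0707) and miR-145a-3p at -0.92 ± 0.344 (adjusted p = 0.288). At R-UUO, miR-145a-5p had 79.4, 153, 233 and 182 CPM, against 79.7, 56.3, 63.9 and 55.8 in Sham and 63.0, 44.7, 58.8 and 36.2 at UUO-7. All R-UUO libraries were above all UUO-7 libraries, as in 6.82% of loci (1.67 ± 0.349 log2, edgeR adjusted p = 0.0207), and the one of mouse 1 was level with the highest sham library (1.34 ± 0.344 against Sham, adjusted p = 0.0111). miR-145a-3p rose by 1.49 ± 0.346 from UUO-7 and by 1.00 ± 0.340 from Sham (adjusted p = 0.0458 and 0.0437). Thus 2 arms were called in each contrast, where 0.853% and 11.7% of loci rose. With the replicate number as a block, 1 arm remained in each. Leaving out R-UUO library 2 or 5, or UUO-7 library 3, left none of the 2 calls against UUO-7, leaving out UUO-7 library 2 left 1, and leaving out R-UUO library 4 gave 3. Against Sham, leaving out R-UUO library 2 or 5 or sham library 2, 3 or 4 left 1 call, and leaving out R-UUO library 1 or 4 or sham library 1 gave 3.

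Without the EC library of R-UUO mouse 4, which stood apart, the called arms at R-UUO were miR-145a-5p, miR-145a-3p and miR-143-3p in both contrasts. Against UUO-7 they differed by 1.40 ± 0.345, 1.71 ± 0.278 and 1.47 ± 0.289, and against Sham by 1.18 ± 0.343, 1.33 ± 0.275 and 1.24 ± 0.289.

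miR-143-3p in ECs had 14433, 27136, 5010 and 23953 CPM at R-UUO and 14311, 8449, 9360 and 6734 in Sham. The R-UUO library of mouse 4 was the lowest of all 16 EC libraries for this arm and the highest for miR-145a-5p. The stromal marker sum did not rise in ECs: it was 425 to 632 CPM in Sham and 199 to 524 at R-UUO. This sum was led by miR-199a-3p, with a median of 267 CPM over the EC libraries, beside 34.3 for miR-34c-5p, so it says little about the scarcer markers. The part of stromal RNA in the EC values was not tested.

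Whether a change differed between cell types was tested with an interaction contrast over all 63 libraries. From Sham to R-UUO, the change in PDGFR-β+ cells was below that in ECs by 2.15 to 2.48 log2, below that in Macs by 2.71 to 3.88 and below that in PT cells by 3.66 to 5.29, and all 4 arms passed in each (edgeR adjusted p at most 0.0331). The share of the 671 loci that passed in this direction was 5.51%, 8.94% and 12.1%. Without the PT library of R-UUO mouse 1 all 4 arms still passed against PT cells, with differences of -2.42 to -3.27, and without the EC library of R-UUO mouse 4 all 4 still passed against ECs, the largest being -2.75 for miR-143-3p (edgeR adjusted p at most 0.0476). From Sham to UUO-7 all 4 passed against PT cells (-3.16 to -3.88, with 14.3% of loci), 3 against Macs (-1.56 to -3.03, all but miR-143-3p, with 7.45% of loci) and none against ECs (-0.76 to -1.29, with 5.37% of loci), where 1 had an unadjusted p under 0.05 with edgeR and with DESeq2, and 1 passed with the mouse as a block. Of the 15 libraries of the Mac comparison, leaving out any of 8 reduced the 3 to 1: PDGFR-β+ Sham 1 and 2, PDGFR-β+ UUO-7 2, 4 and 5, Mac Sham 2 and Mac UUO-7 2 and 4. From Sham to UUO-2, miR-143-3p and miR-145a-5p passed against PT cells (-2.15 ± 0.558 and -2.21 ± 0.757, with 7.90% of loci), no arm passed against ECs (0.298% of loci) or Macs (2.68%) with edgeR or DESeq2 or had an unadjusted p under 0.05, and leaving out all but 2 of the 16 libraries in turn reduced the 2 to 1.

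Relative to the PDGFR-β+ library of the same mouse, the levels in the other cell types were higher at R-UUO than in Sham. For miR-143-3p, the EC level was 2.84% to 6.45% of the PDGFR-β+ level in the 4 sham mice (median 4.01%), with medians of 6.07% after 2 days and 10.4% after 7 days of obstruction, and 6.32% to 33.7% at R-UUO (median 27.3%). For miR-145a-5p in ECs the median went from 8.14% in Sham to 50.1% at R-UUO. In Macs the median for miR-143-3p went from 1.11% in Sham to 6.08% at R-UUO, and in PT cells from 0.655% in Sham to 6.34% at UUO-7 and 4.13% at R-UUO. Without R-UUO mouse 1 the last was 3.33%, and without R-UUO mouse 4 the R-UUO medians in ECs were 27.6% for miR-143-3p and 57.1% for miR-145a-5p.

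Stromal markers took different courses. miR-214-3p, which is abundant in activated fibroblasts, was in ECs at 13.9% of the PDGFR-β+ level of the same mouse in Sham and at 1.36% at R-UUO (medians), and miR-199a-5p of chromosome 1, from the same transcript, went from 8.42% to 1.14%. In PT cells miR-214-3p went from 3.50% to 0.705%. In Macs, by contrast, miR-214-3p went from 3.54% to 7.24%. In PDGFR-β+ cells miR-34c-5p, another stromal marker, changed little from Sham to UUO-7 (0.21 ± 0.241 log2, edgeR adjusted p = 0.481). That contrast does not cover R-UUO, where 7 of the 9 stromal loci were higher and 1 was lower than in Sham, with 13.8% of all loci lower. The change of miR-34c-5p from Sham to R-UUO in PDGFR-β+ cells is not given here. In PDGFR-β+ libraries miR-34c-5p ranged from 332 to 1143 CPM. In EC libraries it ranged from 17.2 to 49.7 CPM, in Mac libraries from 1.50 to 40.0 and in PT libraries from 5.10 to 55.7. From Sham to R-UUO its percentage went from 4.62% to 8.58% in ECs, from 2.01% to 8.00% in Macs and from 0.995% to 7.78% in PT cells. miR-34b-5p went from 1.32% to 9.22% in ECs and, in PT cells, from 0 in all 4 sham mice to a median of 6.92%. These 2 courses rest on very few reads: miR-34b-5p had 0 to 1.62 CPM in EC and 0 to 2.48 CPM in PT libraries. A percentage moves with the PDGFR-β+ level as well as with that of the other cell type. From Sham to R-UUO the stromal loci had a median change of 2.72 log2 in PDGFR-β+ cells, while miR-143-3p changed there by -1.76. In ECs miR-214-3p stayed between 4.67 and 16.9 CPM. These percentages are given as values with no test.

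**Figure D3:**
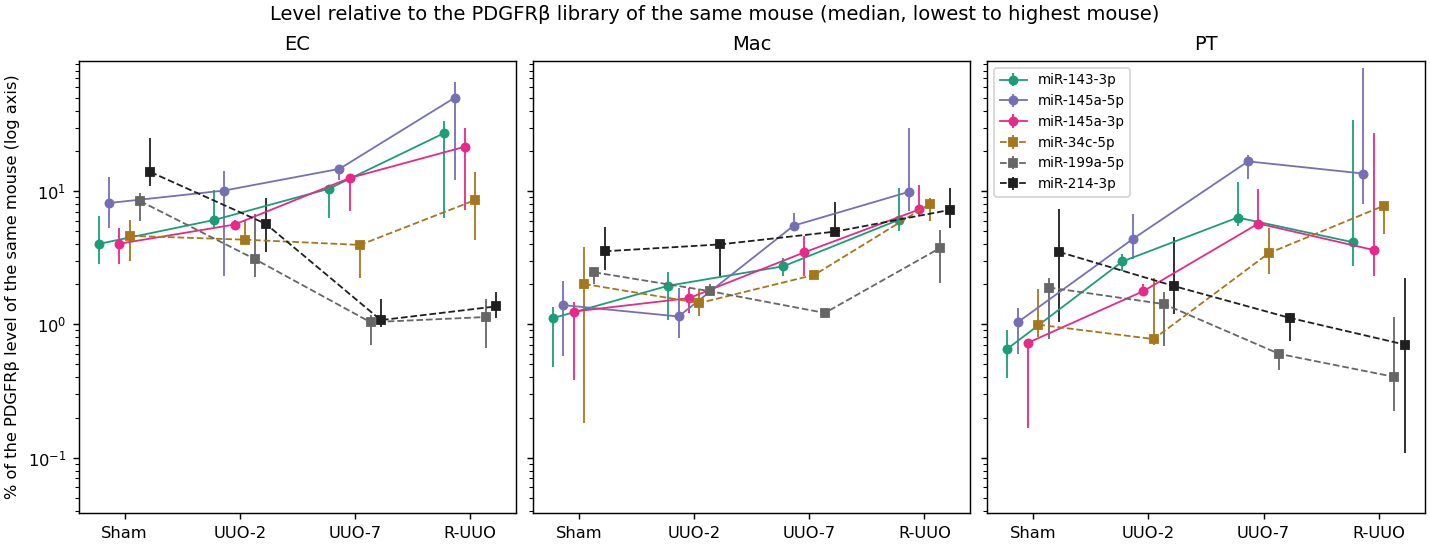
CPM as a percentage of the CPM in the PDGFR-β+ library of the same mouse (log axis) by condition, for ECs, Macs and PT cells, with the median of the mice and bars from the lowest to the highest mouse (4 mice, 3 at UUO-7). miR-143-3p in ECs goes from a median of 4.01% to 27.3%, while miR-214-3p goes from 13.9% to 1.36%. The PDGFR-β+ level that divides them moved as well: from Sham to R-UUO miR-143-3p changed there by -1.76 log2 and the stromal marker loci by a median of 2.72.

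The mice of 1 condition share its level, so the question whether single mice go together was put to deviations of log2 CPM from the mean of the condition, in the 15 mice with a PDGFR-β+ library. Of the 12 relations (4 arms in 3 cell types), none passed Benjamini-Hochberg adjustment in an exact permutation test of mice within conditions (2-sided). The closest was miR-145a-5p in PT cells, with Pearson r = 0.68 (p = 0.0109, adjusted 0.131) and Spearman rho = 0.75 (p = 0.00825, adjusted 0.099), and r = 0.71 without the 2 mice farthest from the median on the PDGFR-β+ axis. In R-UUO mouse 1 miR-145a-5p was the highest of its group both in PDGFR-β+ cells (912 CPM) and in PT cells (759 CPM). The other 3 arms in PT cells had r of -0.36 (miR-143-3p), -0.15 (miR-143-5p) and -0.20 (miR-145a-3p), and in that mouse the PDGFR-β+ level of these arms was the lowest of its group while the PT level was the highest. Without that mouse these 3 values of r turned to 0.37, 0.30 and 0.42, and that of miR-145a-5p was 0.67 (permutation, adjusted p of 0.321 to 0.799), so the sign of these 3 rests on 1 mouse.

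In ECs, r was 0.30 for miR-143-3p, 0.49 for miR-143-5p, 0.42 for miR-145a-3p and -0.27 for miR-145a-5p (permutation p of 0.165 to 0.456, adjusted 0.75), and without R-UUO mouse 4 it was 0.52, 0.49, 0.64 and -0.39 (adjusted p of 0.276 to 0.715). In Macs it ran from -0.11 to 0.40 (permutation p of 0.324 to 0.746, adjusted 0.75 to 0.77), and the 0.40 of miR-143-5p became -0.0014 without the 2 farthest mice. Without removing the condition means, r between PDGFR-β+ cells and another type ran from -0.60 (miR-143-3p in PT cells) to 0.13 (miR-145a-3p in ECs), a description over 15 mice of 4 conditions. The level in the other cell types was thus not shown to go with that of the PDGFR-β+ library of the same mouse.

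**Figure D4:**
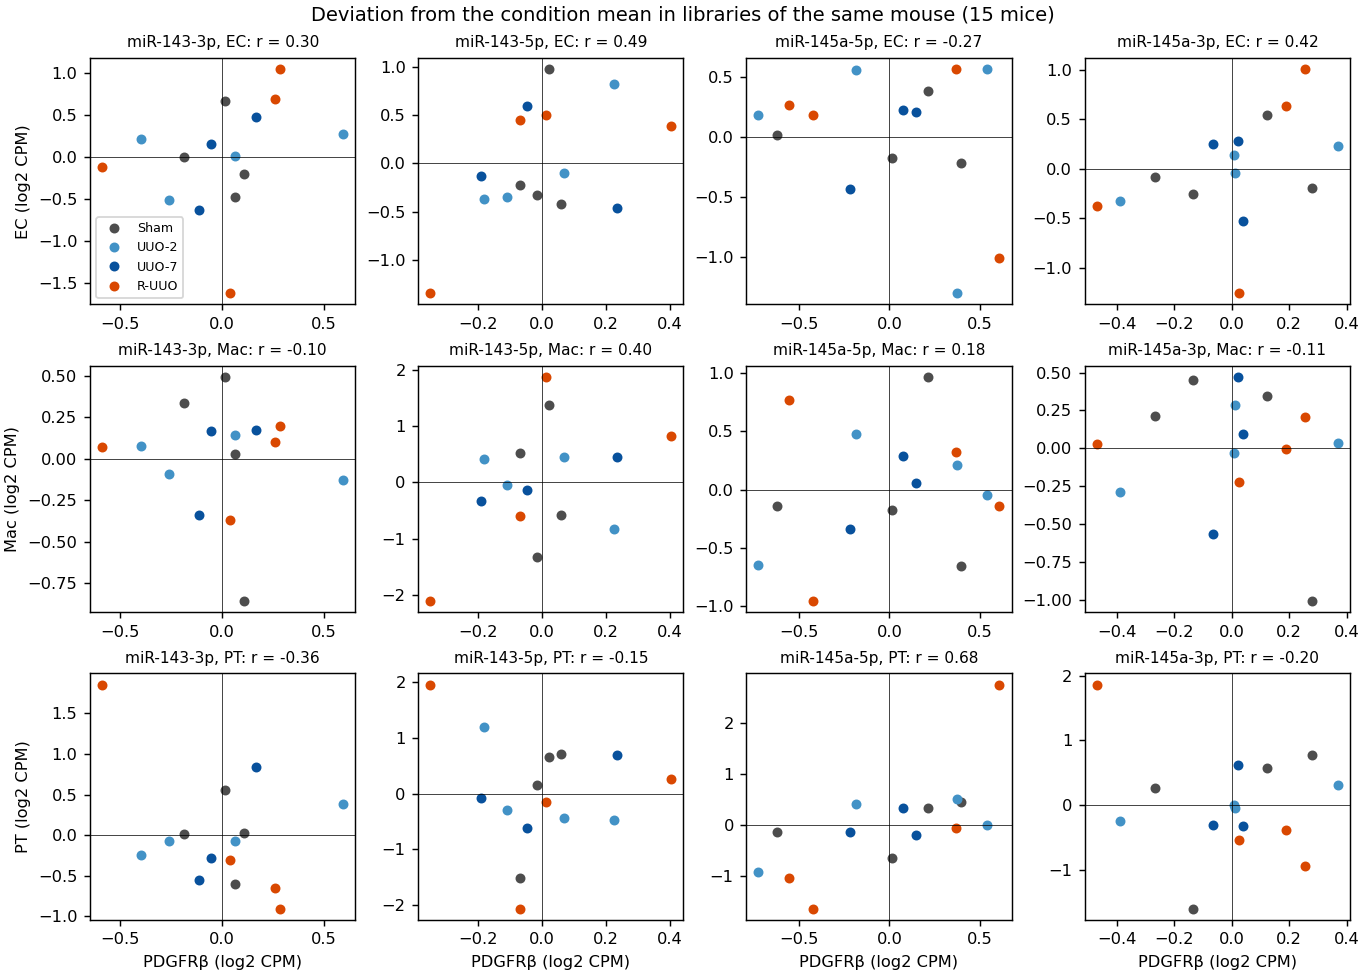
Deviation of log2 CPM from the mean of the condition in PDGFR-β+ cells (x axis) and in ECs, Macs or PT cells (y axis) of the same mouse, 1 point for each of 15 mice, coloured by condition. Pearson r runs from -0.36 to 0.68, and the highest is miR-145a-5p in PT cells, where the 4 R-UUO mice are spread widest.

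Ratios of arms within a library do not depend on the scaling between libraries. The median ratio of miR-143-3p to miR-143-5p counts was 3051 in PDGFR-β+ cells (1709 to 3927), 2163 in ECs, 1665 in Macs and 1390 in PT cells, and the last 3 spread over a wider range (for example 365 to 12665 in Macs, where miR-143-5p had 0 to 38 counts). Against PT cells of the same mouse the log2 ratio was higher in PDGFR-β+ cells by 1.07 (SD 0.980), in 13 of 15 mice (exact sign-flip permutation test, p = 0.00165, adjusted over 9 tests 0.00494). Without R-UUO mouse 1 it was 1.05 and still passed. In mice with at least 10 counts of each arm in both libraries the adjusted p of this difference was 0.152 by the same permutation. Sham PT libraries had at most 2 counts of miR-143-5p, so no sham mouse was among them. The mice left were too few for this exact test to give a p under 0.05, so it cannot decide here.

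The 2 arms of miR-145a were balanced differently by cell type. The median ratio of 5p to 3p counts was 0.976 in PDGFR-β+ cells, 1.19 in Macs, 1.47 in ECs and 2.43 in PT cells. The log2 ratio was lower in PDGFR-β+ cells than in PT cells of the same mouse by 1.29 (SD 0.523) in 15 of 15 mice (exact sign-flip permutation, p = 6.1e-05, the smallest this design allows, adjusted 0.00055). It was lower than in ECs by 0.76 (SD 0.959) in 12 of 15 mice (exact sign-flip permutation, adjusted p = 0.0211). Without R-UUO mouse 1 the difference from PT cells was -1.27, and without R-UUO mouse 4 that from ECs was -0.63 (adjusted p = 0.0423 by the exact permutation). The difference from Macs, -0.31 (SD 0.807), was not past the threshold (exact permutation, adjusted p = 0.161). In the sham PT libraries the ratio rests on few counts, 8 to 17 of miR-145a-5p and 3 to 16 of miR-145a-3p.

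Between the hairpins, the median ratio of miR-143-3p to miR-145a-5p was 255 in PDGFR-β+ cells, 159 in Macs, 139 in ECs and 103 in PT cells. It was higher in PDGFR-β+ than in PT cells in 14 of 15 mice, by 0.98 log2 (SD 0.553, exact sign-flip permutation, adjusted p = 0.00055), and by 0.96 without R-UUO mouse 1. The differences from ECs (0.68, SD 1.14, adjusted p = 0.0708) and from Macs (0.40, SD 0.966, adjusted p = 0.161) were not past the threshold by the same exact permutation.

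With injury, no ratio within PDGFR-β+ cells changed past the adjusted threshold. The miR-143-3p to miR-143-5p log2 ratio was 11.8 ± 0.0975 (SD, n = 4) in Sham and 11.2 ± 0.361 at UUO-2, then 11.4 ± 0.264 (n = 3) at UUO-7 and 11.4 ± 0.355 at R-UUO. The miR-145a-5p to miR-145a-3p log2 ratio was -0.57 ± 0.236 in Sham and 0.38 ± 0.862 at UUO-2, then 0.12 ± 0.138 at UUO-7 and -0.17 ± 0.873 at R-UUO. For 3 of the 9 tests the groups did not overlap and the exact permutation p was 0.0286, the smallest that 4 against 4 or 3 against 4 libraries allow, which gave an adjusted p of 0.0857 over 9 tests. These were miR-143-3p to miR-143-5p at UUO-2 and at UUO-7 against Sham and miR-145a-5p to miR-145a-3p at UUO-7 against Sham.

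**Figure D5:**
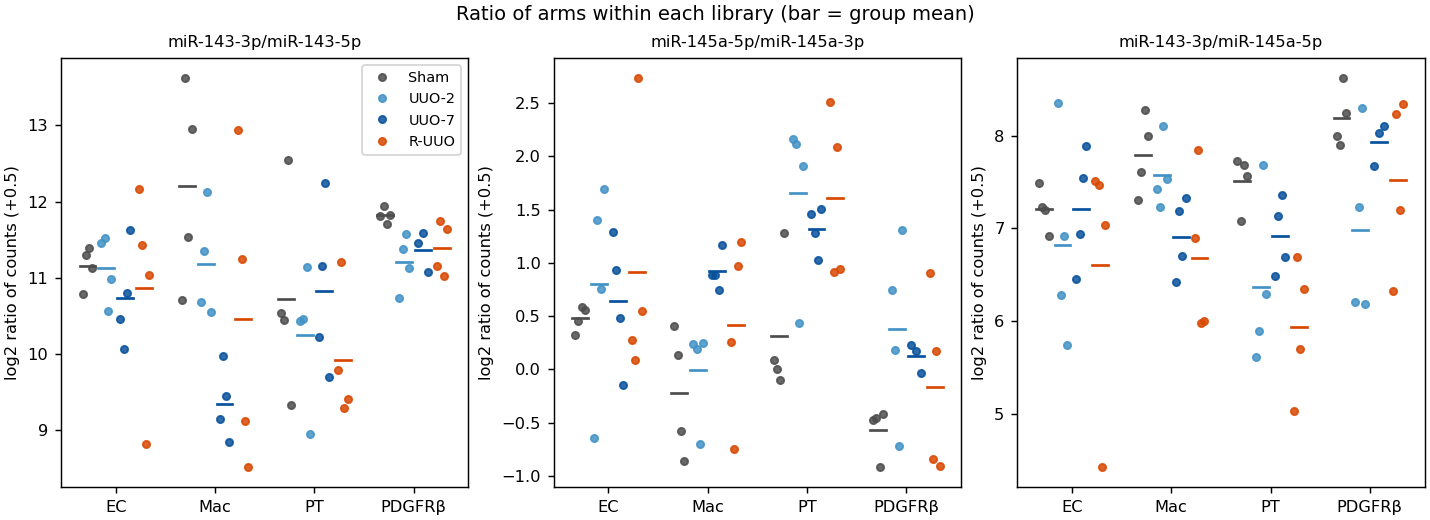
log2 ratio of counts (0.5 added to each) of miR-143-3p to miR-143-5p, miR-145a-5p to miR-145a-3p and miR-143-3p to miR-145a-5p in each library, by cell type and condition, with bars at group means. Over all conditions the median miR-145a-5p to miR-145a-3p ratio is lowest in PDGFR-β+ cells and highest in PT cells, a mean log2 difference of -1.29 within mice. This order does not hold in every condition. At UUO-2 the mean log2 ratio was 0.38 in PDGFR-β+ cells and -0.0070 in Macs, and in Sham it was 0.48 in ECs and 0.32 in PT cells.

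The loci whose log2 CPM went most with miR-143-3p over the 63 libraries, as Pearson r and as a description since cell type sets most of the spread, were miR-34c-5p (0.94), miR-34b-3p and miR-34b-5p (0.90 each), miR-497a-5p (0.87) and miR-7224-3p (0.86), and the other 3 arms of the cluster had 0.91 to 0.99. Over the 15 PDGFR-β+ libraries alone they were miR-15a-5p (0.96), miR-130a-3p (0.95), miR-29c-3p, miR-30d-3p and miR-107-3p (0.92 each). There miR-143-5p had 0.89 and miR-145a-3p 0.92, but miR-145a-5p 0.55, so the arm with the high UUO-2 libraries went least with miR-143-3p. RefSeq (GRCm38.p6) gave a mature sequence for 7 of these 10 miRNAs. They are shown to see whether the 2 groups share a seed, bases 2 to 8, which is in capitals.
miR-497a-5p: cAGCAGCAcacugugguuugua
miR-15a-5p: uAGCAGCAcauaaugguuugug
miR-107-3p: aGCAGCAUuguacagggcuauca
miR-34b-5p: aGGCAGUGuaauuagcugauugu
miR-34b-3p: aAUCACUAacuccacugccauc
miR-130a-3p: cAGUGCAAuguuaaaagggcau
miR-29c-3p: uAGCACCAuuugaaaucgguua
miR-497a-5p at chr11:70234730-70234751 (plus strand) and miR-15a-5p at chr14:61632075-61632096 (minus strand) had the same seed AGCAGCA, and each of the other 5 had a seed of its own.

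Among 20 miRNAs of smooth and other muscle, 13 were tested in PDGFR-β+ cells, at 15 loci. From Sham to UUO-7, 6 loci rose and 4 fell, where 14.3% of all loci fell, with a median change of -0.21 beside 0.50 over all loci. The largest were miR-21a-5p, a miRNA of injury and fibrosis, at 4.97 ± 0.253, miR-125b-5p at 2.23 ± 0.223 and 2.19 ± 0.225 for its loci on chromosomes 9 and 16, and miR-322-5p, of muscle differentiation, at -2.07 ± 0.251. From Sham to UUO-2, 3 loci rose, where 5.66% of all loci rose. From Sham to R-UUO 6 rose and 2 fell, where 13.8% of all loci fell. The cluster thus fell while the listed miRNAs moved in either direction. The share of all loci that rose at UUO-7 and R-UUO is not given here, so these counts are not read as a trait of the list. The list is not particular to PDGFR-β+ cells. miR-21a-5p had a median of 44155 CPM in Macs and 22193 in PDGFR-β+ cells, and miR-322-5p 3041 in ECs and 2594 in PDGFR-β+ cells. miR-125b-5p was highest in PDGFR-β+ cells, with 2030 CPM against 1117 in ECs.

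Of the 7 stromal markers, at 9 loci, 7 loci rose in PDGFR-β+ cells from Sham to UUO-7. The median of the 9 was 2.36, beside 0.50 over all loci. The largest changes were miR-199b-5p at 3.57 ± 0.339, miR-214-3p at 3.06 ± 0.158 and miR-214-5p at 2.59 ± 0.188. Markers of other cell types in the PDGFR-β+ libraries moved in part in the same contrast. In it 14.3% of all loci fell, and the share that rose is not given here. The endothelial miR-126a-3p and miR-126a-5p fell by 1.35 and 1.27 on the log2 scale, from a sum of 2041 to 2588 CPM in Sham to 618 to 1586 at UUO-7, against at least 93098 CPM in every EC library. Of 7 tubule loci, 2 fell, with a median of -0.75, the largest changes being miR-203-3p at -1.06 ± 0.50 (adjusted p = 0.0912) and the called miR-192-5p at -0.96 ± 0.265 and miR-194-5p of chromosome 19 at -0.79 ± 0.240. Of 4 leukocyte miRNAs, 3 rose, led by miR-142a-3p at 4.25 ± 0.492, miR-223-3p at 2.26 ± 0.865 and miR-142a-5p at 2.22 ± 0.326, to a sum of 322 to 725 CPM at UUO-7, against at least 15320 CPM in every Mac library. Of 3 erythroid miRNAs 1 was tested, miR-486a-5p at 0.42 ± 0.388 (adjusted p = 0.394). The adjusted p-values of these called changes were at most 0.0383 with edgeR, and their part in the fall of the cluster was not tested.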

How the data were processed

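Small RNA was sequenced from CD31+, F4/80+, LTL+ and PDGFR-β+ cells sorted from kidneys, and samples were grouped by the cell type and injury model in their labels. The authors trimmed reads with Trim Galore 0.4.1 and cutadapt 1.1, mapped the reads through ShortStack and Bowtie onto the GRCm38 genome with miRBase, and deposited raw counts per mature miRNA locus with no normalization. Strand and the placing of multi-mapping reads are not given in the sources used here. The column that sums libraries was not used. CPM values were computed here with TMM in edgeR 4.0.16 (R 4.3.3), after filterByExpr, over 63 libraries to compare cell types and within a cell type to compare conditions. Each change was a contrast in edgeR's quasi-likelihood fit across every locus, Benjamini-Hochberg FDR of 0.05 and, for injury, a fold change above 1.5. SEs are the absolute log2 difference divided by the square root of F. log2 CPM used a prior count of 2 and ratios a pseudocount of 0.5.

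All 4 arms passed the filter, as did 671 loci over all libraries. Precision is set by depth and by the spread of mice: the biological coefficient of variation was 0.416 in PDGFR-β+ cells, 0.297 in ECs, 0.271 in Macs and 0.332 in PT cells. miR-143-5p had 0 counts in the sham Mac library 2 and the sham PT library 3, which allows up to 1.43 and 3.04 CPM at 3 counts, and such limits cover counting error only. No 2 replicates were alike within sampling noise. Replicate numbers were taken to mark the same mouse across cell types within a condition, and different mice across conditions. The labels give the number and do not state that it names a mouse. Deviations of libraries of 1 mouse correlated above 0.1 in 31 of 93 pairs (median 0.0485), and those of libraries sharing only a number in 8 of 74 (median -0.0175). Scripts were tested on simulated data. Alternatives were DESeq2 1.42.0, library size only, no filter, loci of 1 name summed, blocks and leaving out each library or mouse. The miRNAs named besides the 4 arms are, by rule, the 5 of highest correlation with miR-143-3p over 63 and over 15 libraries and up to 3 per list with the largest change in PDGFR-β+ cells from Sham to UUO-7, and marker miRNAs used as checks. The members and lists were chosen with earlier results of these data known. Sequences of the cluster itself were not used here.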

Additional observations from a re-analysis of the deposited data

Results flagged for a closer look

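In 4 of the 60 combinations of an arm and a group of 4 libraries, 1 library lay far from the other 3 by Dixon's test, which chance gives in about 5% of groups. These were miR-143-5p in the EC library of R-UUO mouse 1 (4.31 CPM, the lowest of its group), in the EC library of sham mouse 1 (13.4 CPM, the highest) and in the PT library of UUO-2 mouse 4 (14.3 CPM, the highest), and miR-145a-3p in the Mac library of sham mouse 2 (8.67 CPM, the lowest).

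The change from Sham differed between PDGFR-β+ cells and another cell type in 21 tests of the difference itself (edgeR interaction contrast, FDR of 0.05). At R-UUO the difference from ECs was -2.48 log2 for miR-143-3p, -2.15 for miR-143-5p, -2.26 for miR-145a-5p and -2.38 for miR-145a-3p. That from Macs was -2.71, -3.88, -3.19 and -2.91, and that from PT cells -3.72, -4.52, -5.29 and -3.66, in the same order of arms. At UUO-7 the difference from PT cells was -3.51, -3.16, -3.88 and -3.42 in that order, and that from Macs was -3.03 for miR-143-5p, -1.98 for miR-145a-5p and -1.56 for miR-145a-3p. At UUO-2 the difference from PT cells was -2.15 for miR-143-3p and -2.21 for miR-145a-5p.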

How the results depend on the processing

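In PDGFR-β+ cells the 4 calls at UUO-7 against Sham became 2 with library size only, and leaving out any 1 library kept all 4. The calls in the other cell types depended on the setting more. For the arms called at R-UUO in ECs (2 against UUO-7 and 2 against Sham), the counts were 1 and 1 with the replicate block, 1 and 1 with TMM factors from all 63 libraries, 0 and 1 with only the 2 groups compared, and against Sham 1 with library size only and 4 with no filter on low counts; leaving out 1 library gave 0 to 3 and 1 to 3. At UUO-7 against UUO-2 in ECs, where none was called, 1 was with library size only, 3 with no filter, 1 with DESeq2 and 0 to 1 on leaving out a library, and at UUO-2 against Sham 1 with no filter. In Macs at UUO-7 against Sham (1 called), library size only, no filter and DESeq2 gave 2, the replicate block 0, and leaving out a library 0 to 2. At UUO-2 against Sham (0) library size only gave 1 and leaving out a library 0 to 1, and at UUO-7 against UUO-2 (0) only the 2 groups compared gave 1 and leaving out a library 0 to 1. In PT cells no filter gave 4 and DESeq2 1 in place of 2 at UUO-2 and at UUO-7 against Sham, with 0 to 2 and 1 to 2 on leaving out a library. At R-UUO against Sham (4), DESeq2 and only the 2 groups compared gave 2, and leaving out a library 2 to 4. At R-UUO against UUO-7 (0), no filter gave 1. In PDGFR-β+ cells at UUO-2 against Sham (0), no filter gave 1 and leaving out a library 0 to 1. PDGFR-β+ cells exceeded ECs at R-UUO for 2 to 4 arms on leaving out a library. For the difference of the change, that from ECs at UUO-7 (0) became 2 with no filter, 1 with the mouse as a replicate block and 0 to 1 on leaving out a library, that from Macs at UUO-7 (3) became 1 to 3 on leaving out a library, and that from PT cells at UUO-2 (2) became 4 with no filter, 1 with loci of 1 name summed, 1 with DESeq2 and 1 to 2 on leaving out a library. Other counts of calls stayed within 1.5 times under the replicate block. The cause of these shifts was not tested. In mice with at least 10 counts of each arm, the miR-143-3p to miR-143-5p log2 difference between PDGFR-β+ cells and PT cells was 1.1 and no longer past the threshold, and that from Macs was 1.40 and past it. For PT cells the mice left were too few for the exact permutation test to pass, so the loss of this call decides nothing. On leaving out 1 mouse the differences from ECs were 0.292 to 0.523 for this ratio and 0.527 to 0.878 for miR-143-3p to miR-145a-5p, past the threshold without R-UUO mouse 1 or UUO-2 mouse 1. Depth limits miR-143-5p most, with 45 counts at most in a Mac or PT library.

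No value that passed the threshold, in the reported setting or in the alternative, had its sign turned by an alternative, but 72 values of 25 results below the threshold in both turned sign. With no filter on low counts the value became 0.095 for miR-143-5p in ECs at UUO-7 against Sham and -0.054 for miR-143-3p in Macs at UUO-7 against Sham. With loci of 1 name summed the value became 0.093 for miR-143-5p in ECs at UUO-7 against Sham, -0.12 for miR-143-3p in Macs at UUO-7 against Sham, -0.064 for miR-143-3p in PT cells at R-UUO against UUO-7, -0.055 for the PDGFR-β+ minus ECs difference of the UUO-2 change of miR-145a-5p and -0.023 for the PDGFR-β+ minus Macs difference of the UUO-2 change of miR-145a-5p. With the replicate block the value became 0.0088 for miR-143-5p in ECs at UUO-7 against Sham, 0.21 for miR-145a-5p in PT cells at UUO-7 against UUO-2, -0.57 for miR-143-3p in PT cells at R-UUO against UUO-7 and -0.051 for the PDGFR-β+ minus ECs difference of the UUO-2 change of miR-145a-5p. With TMM factors from all 63 libraries the value became -0.068 for miR-143-3p in Macs at UUO-7 against Sham and -0.058 for miR-143-3p in PT cells at R-UUO against UUO-7. With only the 2 groups compared the value became -0.070 for miR-143-3p in Macs at UUO-7 against Sham. With library size only the value became -0.12 for miR-145a-3p in PT cells at UUO-7 against UUO-2, -0.46 for miR-143-3p in PT cells at R-UUO against UUO-7, -0.046 for miR-145a-5p in PDGFR-β+ cells at R-UUO against UUO-7, -0.041 for the PDGFR-β+ minus ECs difference of the UUO-2 change of miR-145a-5p, -0.14 for the PDGFR-β+ minus Macs difference of the UUO-2 change of miR-145a-5p, 0.083 for r of miR-143-3p with Macs and 0.16 for r of miR-145a-3p with PT cells. With no filter before TMM the value became 0.074 for r of miR-143-5p with PT cells. Leaving out 1 library or mouse gave -0.059 to 0.88 for miR-143-5p in ECs at UUO-2 against Sham, -0.12 to 0.56 for miR-143-5p in ECs at UUO-7 against Sham, -0.46 to 0.034 for miR-143-3p in ECs at UUO-7 against Sham and -0.53 to 0.067 for miR-143-5p in ECs at UUO-7 against UUO-2. The range was -0.33 to 0.066 for miR-143-3p in Macs at UUO-7 against Sham, -0.037 to 0.39 for miR-145a-5p in Macs at UUO-7 against UUO-2, -0.29 to 0.95 for miR-143-5p in Macs at R-UUO against UUO-7 and -0.27 to 0.28 for miR-145a-3p in PT cells at UUO-7 against UUO-2. It was -0.59 to 0.19 for miR-143-5p in PT cells at UUO-7 against UUO-2, -0.12 to 0.47 for miR-143-3p in PT cells at UUO-7 against UUO-2, -0.25 to 2.12 for miR-145a-5p in PT cells at R-UUO against UUO-7 and -0.42 to 1.14 for miR-145a-3p in PT cells at R-UUO against UUO-7. Values ran from -1.09 to 0.49 for miR-143-3p in PT cells at R-UUO against UUO-7, -0.11 to 0.35 for miR-145a-5p in PDGFR-β+ cells at R-UUO against UUO-7, -0.17 to 0.20 for the PDGFR-β+ minus ECs difference of the UUO-2 change of miR-145a-5p and -0.55 to 0.35 for the PDGFR-β+ minus ECs difference of the UUO-2 change of miR-143-5p. It ran from -0.27 to 0.39 for the PDGFR-β+ minus Macs difference of the UUO-2 change of miR-145a-5p, -0.61 to 0.37 for r of miR-143-3p with PT cells, -0.29 to 0.30 for r of miR-143-5p with PT cells and -0.018 to 0.43 for r of miR-145a-5p with Macs. The ends were -0.26 to 0.31 for r of miR-145a-3p with Macs, -0.39 to 0.42 for r of miR-145a-3p with PT cells and -0.12 to 0.15 for the ratio of miR-143-3p to miR-143-5p in PDGFR-β+ cells at R-UUO against UUO-7.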
